A study of Homo sapiens with 8 samples.

Results

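The long-read chromatin transcriptome of HAP1 cells was described transcript by transcript. HAP1 is a near-haploid human line derived from the KBM-7 chronic myeloid leukemia line. No treatment or genetic change is named for the cells. Their nuclei were split with a urea and detergent buffer into a soluble nucleoplasm fraction and a chromatin fraction, RNA standards of the External RNA Controls Consortium (ERCC) were added, and ribosomal RNA was depleted. The chromatin fraction was sequenced as 2 long-read libraries, long-read 1 and 2, in which RNA was given a poly(A) tail by an enzyme and copied into cDNA for Oxford Nanopore sequencing. The chromatin and nucleoplasm fractions were also each sequenced as 3 short-read libraries, and no long-read library of the nucleoplasm was analysed here. A transcript was taken as a member when its abundance in TPM, a read level corrected for transcript length and for the library's total, lay above 0 in both long-read libraries, which left 77034 of 301869 listed transcripts. Of these, 31433 carried a reference (GENCODE) identifier, 45574 carried an identifier given by the transcript assembler, and 27 were ERCC standards. Another 48942 transcripts lay above 0 in 1 library only. The lowest member value was 1e-06 TPM, the median of the lower value over members was 1.71 TPM, and the median higher value of transcripts seen in 1 library was 1.88 TPM.

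The members held 91.7% of all TPM in long-read 1 and 91.4% in long-read 2. Reference transcripts held 38.9% and 39.6% of the table, and assembled transcripts held 52.2% and 51.3%. Chromatin RNA is the RNA that stays bound when the soluble nuclear contents are washed away. It holds nascent transcripts still attached to RNA polymerase and transcripts whose introns have not yet been removed. It also holds lncRNAs (long noncoding RNAs) that are kept in the nucleus, such as MALAT1 and NEAT1. Processed pseudogenes are copies of spliced mRNAs that were reverse transcribed and put back into the genome, so that they have no introns and closely resemble the mature mRNA of their parent gene.

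The leukemic origin of the cells was checked with 12 markers, of which 5 had a member transcript. BCR and ABL1, the partner genes of the fusion in the parental leukemia, had 4.83 and 3.92 TPM, and 1.61 and 1.48 TPM. TAL1, a transcription factor of blood progenitors, had 7.98 and 3.20 TPM, and MYC had 142 and 54.0 TPM. The defining blood genes PTPRC, SPI1 and GATA1 had no member transcript and 0 normalized counts in every short-read library. CD34, a marker of blood progenitors, lay between 0 and 3.6 normalized counts in chromatin, while the progenitor genes KIT and GATA2 were present, with 1576, 1409 and 1616 and with 1119, 1119 and 1179 normalized counts. Among 11 markers of other cells, 3 had a member: KRT18 at 5.36 and 8.16 TPM, COL1A1 at 0.794 and 0.888 TPM and KRT8 at 0.109 and 0.201 TPM. In these bulk libraries, fewer cells of a type and less RNA per cell cannot be told apart.

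By the lower value of the 2 libraries, the most abundant reference member was the processed pseudogene ENSG00000279483 at chr7:137513859-137513933 (hg38, + strand), with 2552 TPM in long-read 1 and 4303 TPM in long-read 2. Its 75 annotated bases are shown with the coding bases of RPL41, a very small protein of the large ribosomal subunit, because the pair had 0 mismatches. Reads of such a sequence can be placed at either gene. Both are printed in lower case, with no capitals since no base differed.
RPL41: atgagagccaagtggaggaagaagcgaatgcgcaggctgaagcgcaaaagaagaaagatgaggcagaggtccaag
ENSG00000279483: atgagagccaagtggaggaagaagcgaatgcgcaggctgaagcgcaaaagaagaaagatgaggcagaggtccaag

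The long-read table gave this pseudogene an interval of 403 bases, longer than its annotation, and 381 of 383 aligned bases of that interval matched the RPL41 mRNA. RPL41 itself had 518 and 702 TPM in its only member isoform, ENST00000552314.1, which is annotated without a defined coding sequence. An assembled transcript within an intron at chr22:35838253-35838699 had 2487 and 4199 TPM, and 395 of 397 aligned bases matched RPL41 as well. Both copies therefore stood above the only member isoform of RPL41 in each long-read library. In short reads ENSG00000279483 had 31.4, 22.8 and 30.7 normalized counts in chromatin. The 6 member processed pseudogenes closest to RPL41 together had 3550, 2688 and 3616 normalized counts per kb there. RPL41 had 3404, 2780 and 3777.

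EEF1A1, which encodes the factor that brings aminoacyl-tRNA to the ribosome, showed the same order. Its processed copies EEF1A1P6 (chr7:22510616-22511999), EEF1A1P13 (chr5:14651941-14653329) and EEF1A1P11 (chr1:96446930-96448318) had 2880 and 2435 TPM, 2823 and 2374 TPM, and 2597 and 1879 TPM. The EEF1A1 gene had 820 and 494 TPM. Matching bases over the annotated copy were 1377 of 1385 for EEF1A1P6, 1363 of 1389 for EEF1A1P13 and 1351 of 1389 for EEF1A1P11. A window of 60 coding bases is shown because it holds differences in all 3 copies; it starts at base 1049 of the EEF1A1 coding sequence, counted from 1 at the start codon, and capitals mark bases that differ from EEF1A1.
EEF1A1: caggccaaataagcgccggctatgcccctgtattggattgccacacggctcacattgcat
EEF1A1P6: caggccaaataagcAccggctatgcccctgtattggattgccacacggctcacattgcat
EEF1A1P13: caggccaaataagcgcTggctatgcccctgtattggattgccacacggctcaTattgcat
EEF1A1P11: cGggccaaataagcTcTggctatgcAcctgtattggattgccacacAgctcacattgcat

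The window held 1 difference in EEF1A1P6, 2 in EEF1A1P13 and 5 in EEF1A1P11. The order of the copies by TPM was the same as the order of their likeness to EEF1A1 in both libraries, a description of 3 copies that share reads.

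By gene type, protein-coding genes and pseudogenes made up most of the reference TPM. Protein-coding genes held 22378 member transcripts of 11223 genes, and 52.1% and 46.8% of reference TPM in long-read 1 and 2. Pseudogenes held 2920 member transcripts of 2840 genes, and 38.2% and 42.9% of reference TPM, of which processed pseudogenes alone held 35.1% and 39.7%. lncRNA genes held 3990 member transcripts of 3275 genes but only 5.19% and 3.63% of reference TPM. Small RNA genes held 4.04% and 6.19%, and mitochondrial rRNA and tRNA genes held 0.224% and 0.269%.

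The short-read chromatin libraries gave another makeup. Short-read counts were divided by the exon length of each gene, so that both tables were read per length, and each table was read as shares since they were normalized separately. Small RNAs held 63.2%, 60.8% and 67.5% of the short-read abundance, which left little room for other classes, so the classes were compared again without them. Protein-coding genes then held 54.6% and 50.2% in long reads and 76.1%, 78.2% and 78.1% in short reads. lncRNA genes held 5.43% and 3.88% in long reads and 16.9%, 15.2% and 14.9% in short reads. Pseudogenes held 40.0% and 46.0% in long reads and 6.93%, 6.68% and 7.04% in short reads. For each of the 3 classes the long-read values lay wholly apart from the short-read values. These long-read shares count reference members only. With assembled transcripts placed in a gene added, the mean lncRNA share of long-read TPM, small RNAs included, went from 4.41% to 7.56%.

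**Figure D1:**
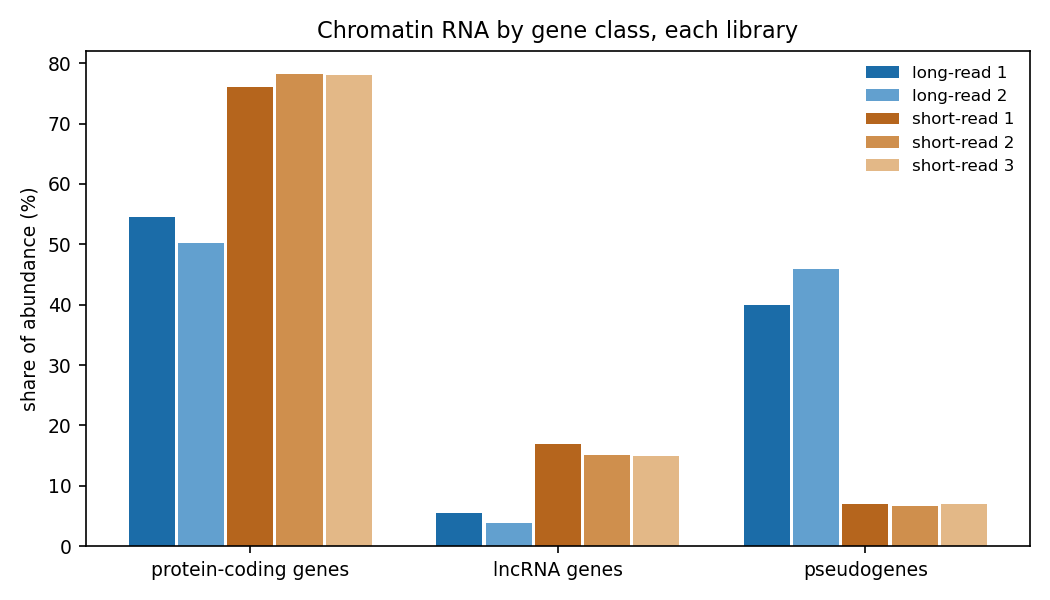
Share of abundance (percent, y axis) held by protein-coding genes, lncRNA genes and pseudogenes, small RNAs left out, in each chromatin library: 1 bar per library, TPM of reference members for the 2 long-read libraries and counts per kb for the 3 short-read libraries. Pseudogenes hold 40.0% and 46.0% in long reads and at most 7.04% in short reads.

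Transcripts with 1 exon were 20.3% of reference members and 11% of all listed reference transcripts, but held 45.3% and 51.2% of reference TPM. In pseudogenes 96.3% and 96.9% of TPM lay in transcripts of 1 exon, against 4.30% and 3.84% in protein-coding genes and 35.3% and 31.6% in lncRNA genes. Abundance was also concentrated. The 100 highest transcripts held 26.1% of reference TPM in long-read 1 and 29.4% in long-read 2, and 50% of it was reached with 606 and 322 transcripts.

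Detection of processed pseudogenes followed their likeness to an mRNA. Each was aligned to the protein-coding mRNAs, and the closest was taken as its parent. Of copies under 80% identity, 8.34% were members, with medians of 2.0955 TPM in long-read 1 and 1.3171 TPM in long-read 2. Of copies at 90 to 95%, 30.7% were members. Of copies at 95 to 98%, 67.5% were members, with medians of 13.9 and 15.3 TPM, and of copies at 98 to 100%, 77.7% were members, with medians of 36.2 and 40.2 TPM. The largest step in detection between neighbouring ranges lay at 95%, and copies above it held 89.1% of processed-pseudogene TPM in long-read 1 and 90.2% in long-read 2.

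**Figure D2:**
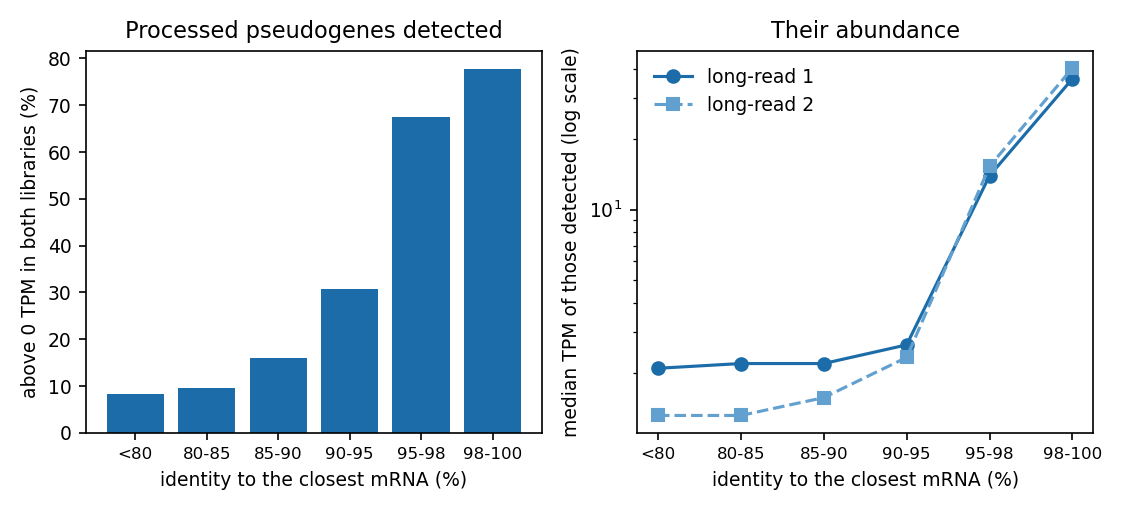
Left, percent of listed processed pseudogenes above 0 TPM in both long-read libraries (y axis) by percent identity to the closest mRNA (x axis). Right, median TPM of those detected on a log scale, 1 line per library; detection climbs over the whole range to 77.7%, and the medians climb mainly from 95% on, to 36.2 and 40.2 TPM.

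Copies of ribosomal protein mRNAs made up most of this class. With transcribed processed pseudogenes included, 2471 of 11277 listed transcripts were members, and 811 of these had 1 of 79 ribosomal protein genes as parent. They held 68.7% and 71.8% of the TPM of the class. The 19 member copies of EEF1A1 held 8.01% and 5.34%, and the 1472 copies of 872 other genes held 22.7% and 22.4%. Ribosomal protein mRNAs are short, very abundant in cytoplasm and known as the most frequent source of processed pseudogenes in the human genome.

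Copies were then set against their parents. Only copies above 0 TPM in both long-read libraries were summed, for the short-read values as well. The copies were thus chosen by the long-read values, and a copy without a short-read gene added nothing to the short-read sum. Over 51 ribosomal protein genes with values for parent and copies in both tables, the copies together exceeded the parent in both long-read libraries for 36 genes and exceeded it per kb in all 3 short-read chromatin libraries for 5. All 5 were among the 36. The median log2 ratio of copies to parent was 1.06 and 1.67 in long reads and -2.52, -2.36 and -2.59 in short reads. When assembled transcripts inside the parent gene, on either strand, were added to the parent, 21 of the 51 remained above it, with medians of -0.36 and -0.28; this alternative was chosen after seeing the data.

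**Figure D3:**
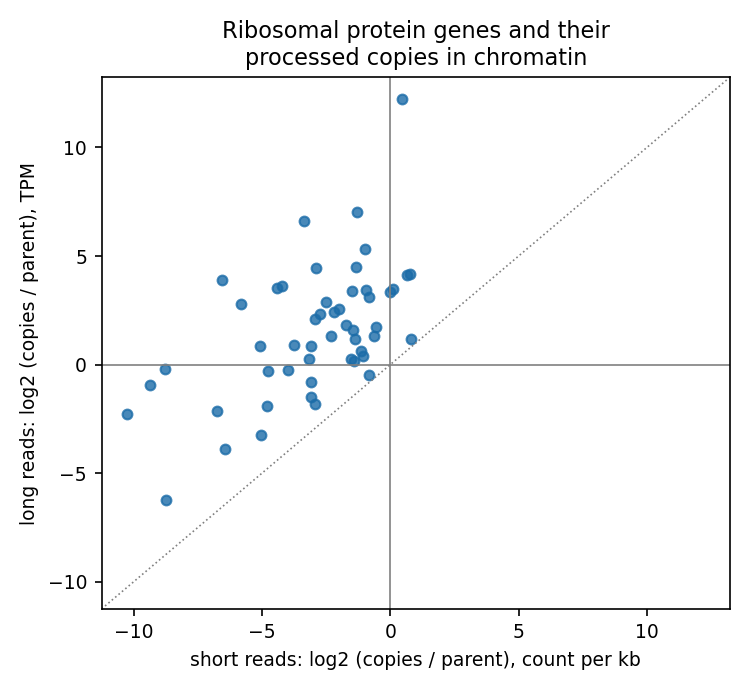
For 51 ribosomal protein genes (points), the mean log2 ratio of summed processed copies to the parent gene in the 2 long-read libraries (y axis, TPM) against the 3 short-read chromatin libraries (x axis, count per kb); the dotted line marks equal ratios and grey lines mark equality of copies and parent. Points above the horizontal line have copies above the parent in long reads, while most points lie left of the vertical line. On each axis only copies above 0 TPM in both long-read libraries are summed.

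RPL29, a protein of the large ribosomal subunit, showed the difference between the tables plainly. It had 8 copies with 2062 and 1883 TPM against 90.7 and 89.7 TPM for the gene, and in short reads 3222, 2675 and 3100 counts per kb against 21812, 19960 and 25048. Copies and parent changed places between the tables with no overlap of libraries. RPL15 was higher in its copies in both tables, with 12 copies at 1786 and 2107 TPM against 1.03 and 0.159 TPM for the gene. RPS2 had 37 copies at 6248 and 5112 TPM against 735 and 576 TPM.

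lncRNA members also shared sequence with mRNAs. Of 3990 lncRNA transcripts, 581 (14.6%) aligned to a protein-coding mRNA of another or an overlapping gene over at least 200 bases at 95% identity or more, 189 on the same strand and 392 on the opposite strand. These held 13.8% of lncRNA TPM in both libraries. ENSG00000243004, second among lncRNA genes with 560 and 527 TPM, matched RPL21 at 198 of 198 bases on the opposite strand, just under that length. The stretch covered 24.6% of the transcript. The gene had 6.99 normalized counts in 1 short-read chromatin library and 0 in the other 2. The next lncRNA gene, ENSG00000222042, had 497 and 468 TPM and 0 normalized counts in each short-read chromatin library. No alignment to a protein-coding mRNA was found for it.

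The highest lncRNA gene was MALAT1, a nuclear-speckle RNA, with 2908 and 1715 TPM. NEAT1, the scaffold of paraspeckles, had 58.9 and 50.7 TPM. PCBP1-AS1 had 132 and 112 TPM over 7 isoforms. Among protein-coding genes RPSA2 was highest at 1602 and 1839 TPM, followed by RPS12 at 945 and 1171 TPM, RPS16 at 927 and 1456 TPM, RPL17 at 845 and 775 TPM and RPL39 at 760 and 941 TPM. The RPSA2 transcript matched RPSA, which encodes a small-subunit protein, at 1030 of 1036 aligned bases, and RPSA had 107 and 114 TPM. So the 5 highest protein-coding genes all encoded or closely resembled ribosomal proteins.

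Other types were led by known structured RNAs. RN7SK, which holds the elongation factor P-TEFb in an inactive complex, had 2452 and 2866 TPM, and an overlapping entry of the same locus, named 7SK, had 100.6 and 139 TPM, so its reads may be split. RN7SL1, the RNA of the signal recognition particle, had 1123 and 1959 TPM. RMRP, the RNA of a ribonuclease that cuts precursor rRNA, had 252 and 254 TPM. Among snoRNAs SNORD3C, a U3 RNA of early rRNA processing, had 140 and 234 TPM. A U2 spliceosomal RNA gene on chromosome 17 had 88.2 and 778 TPM, an example of a short RNA that differed widely between the libraries. Among unprocessed pseudogenes, MTCO2P12 had 1091 and 740 TPM and MTCO1P12 had 912 and 724 TPM. Both are nuclear copies of mitochondrial genes.

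The isoforms of 5587 genes with at least 2 member isoforms and 1 TPM or more in both libraries were compared. Over all 19162 genes with a member, 69.4% had 1 member isoform, 15.2% had 2 and 4.09% had 5 or more. KANSL1, a subunit of a histone acetyltransferase complex, had the most with 15, followed by MED13L with 14. The isoform with the highest TPM was the same in both libraries for 4404 of the 5587 genes (78.8%). The share was 83.2% for genes with 2 isoforms, 76.4% with 3, 74.1% with 4 and 72.5% with 5 or more. The leading isoform held a median of 74.9% and 77.0% of its gene's TPM. In the other genes the libraries named different leading isoforms, so each isoform is given in both libraries.

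**Figure D4:**
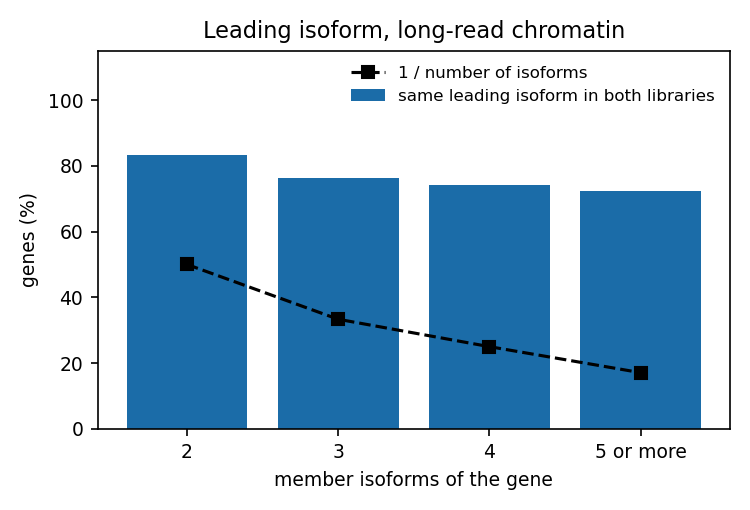
Percent of genes with the same leading isoform in both long-read libraries (bars, y axis) by number of member isoforms (x axis); black squares mark 1 divided by the number of isoforms. Bars go from 83.2% with 2 isoforms to 72.5% with 5 or more.

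Retained-intron transcripts were frequent among isoforms of protein-coding genes. These are spliced transcripts annotated with an intron left in place. Of 28443 listed, 6141 (21.6%) were members, against 15.2% of transcripts annotated as protein-coding and 8.44% of those annotated for nonsense-mediated decay, the pathway that removes mRNAs with an early stop codon. Retained-intron transcripts held 15.1% and 14.7% of the TPM of protein-coding genes, protein-coding transcripts held 74.6% and 75.9%, and decay transcripts held 4.74% and 4.15%. The reference isoform chosen for each gene by RefSeq and Ensembl (MANE Select) held 46.3% and 47.5%. Among protein-coding genes with several isoforms, the MANE Select isoform led in 43.7% and 44.7%, and a retained-intron isoform led in 13.8% and 13.9%. A retained-intron isoform led in both libraries in 428 genes and a decay isoform in 219.

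The most abundant genes led by such isoforms were ribosomal protein genes and ACTG1, which encodes cytoplasmic actin. RPL17 had 702 and 659 TPM in the retained-intron isoform ENST00000584364.5, which was 83.0% and 85.1% of the gene. RPL8 had 616 and 523 TPM in ENST00000526668.5, 82.8% and 91.6% of the gene. RPL30 was led by the decay isoform ENST00000518850.5 with 559 and 543 TPM. ACTG1 had 363 and 387 TPM in ENST00000576917.5, and its MANE Select isoform was not a member. In these 4 genes the leading isoform was the same in both libraries.

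In 5 other abundant genes the leading isoform changed between the libraries. RPL19 had 604 TPM of the retained-intron isoform ENST00000577741.2 in long-read 1 and 71.8 TPM in long-read 2, and 14.4 and 662 TPM of the protein-coding isoform ENST00000579260.5. RPL9 had 315 and 0.457 TPM of its MANE Select isoform. RPL35A had 164 and 8.17 TPM of a protein-coding isoform and 126 and 248 TPM of a retained-intron isoform. The gene totals were steadier, with 620 and 745 TPM for RPL19, 543 and 455 TPM for RPL9 and 308 and 275 TPM for RPL35A. RPS2 and RPL31 were the remaining 2. With 2 libraries, the assignment of reads to isoforms of these genes is a description of each library.

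The 5′ splice sites of introns that leading retained-intron isoforms keep are shown, since they are the point at which the isoforms part from the MANE Select mRNA. Each line gives 20 exon bases in lower case and the first 20 intron bases in capitals. They are ACTG1 intron 4 (chr17:81511109-81511187, - strand, 79 bases) and RPL19 intron 3 (chr17:39202440-39202988, + strand, 549 bases), in hg38.
ACTG1: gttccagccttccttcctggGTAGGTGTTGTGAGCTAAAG
RPL19: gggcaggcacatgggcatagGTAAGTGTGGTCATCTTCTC

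Both introns open with GT, the usual start of a human intron.

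mRNAs that are abundant in cytoplasm were read as a sign of carry-over. All 5 had members, and 4 were led by a retained-intron isoform in both libraries. GAPDH had 72.1 and 543 TPM, all in the retained-intron isoform ENST00000466525.1. ACTB had 163 and 222 TPM, of which 85.2% and 93.6% lay in retained-intron isoforms. TUBA1B had 178 and 98 TPM with 91.0% and 95% in such isoforms, and B2M had 369 and 286 TPM with 61.9% and 74.8%. EEF1A1 was led by its MANE Select isoform. In short reads GAPDH had 17570, 15120 and 19117 normalized counts in chromatin and 87427, 85456 and 89808 in nucleoplasm. What part carry-over has in the retained-intron values was not tested.

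Splicing regulators were chosen because many of them are known to keep introns in the nucleus. All 13 SR splicing factors had members, with 545 and 457 TPM in sum, and 12 of 13 had the same leading isoform in both libraries, with 10 of the 13 having more than 1 isoform. SRSF2 had 157 and 76.2 TPM, SRSF11 had 116 and 59.2 TPM and SRSF7 had 59.7 and 69.1 TPM. SRSF3, SRSF4 and SRSF9 were led by retained-intron isoforms in both libraries, but over all 13 genes such isoforms held 9.08% and 7.45% of TPM, less than the 15.1% and 14.7% of protein-coding genes as a whole. All 12 genes listed for detained introns had members, with 486 and 324 TPM in reference isoforms, of which 35.3% and 63.5% lay in retained-intron isoforms. Assembled transcripts placed in these 12 genes held another 611 and 386 TPM, more than the reference isoforms, so the shares cover the smaller portion. CCNL1, a cyclin tied to splicing, had 59.5 and 58.9 TPM over 13 isoforms, with 99.7% in retained-intron isoforms in each library. CLK1, a kinase of SR proteins, had 11.3 and 32.2 TPM in reference isoforms, all of the retained-intron type, and 46.8 and 21.9 TPM in assembled transcripts placed in the gene, whose type is not annotated. CCNL2 differed between libraries, with 2.94% and 82.1% in such isoforms.

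Of 20 RNAs on a fixed list named nuclear lncRNAs, 15 had members, holding 0.862% and 0.509% of reference TPM, most of it MALAT1. A listed RNA need not be confined to the nucleus, and TUG1 on the list is typed as protein-coding. DANCR had 106 and 64.3 TPM, and CRNDE had 40.7 and 26.8 TPM. FTX, a lncRNA of the X-inactivation center, had 29.5 and 19.3 TPM over 8 isoforms. KCNQ1OT1, a long antisense RNA of an imprinted region, had 0.114 and 0.0206 TPM. Of 15 snoRNA host genes, 13 had members, led by GAS5 at 159 and 88.0 TPM, ZFAS1 at 135 and 110 TPM and SNHG1 at 104 and 95 TPM. GAS5, SNHG3 and SNHG12 lay wholly in retained-intron isoforms in both libraries. The other lists were 14 of 18 structured RNAs, 72 of 86 ribosomal protein genes with 5.65% and 5.95% of reference TPM, 55 of 68 replication-dependent histone genes with 0.258% and 0.326%, and 37 of 37 mitochondrially encoded genes with 0.643% and 0.594%.

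Genes were ranked within each table and the ranks compared over 14417 genes above 0 in all long-read and short-read chromatin libraries. Spearman's rho across genes was 0.62 for the means (0.23 over only those short-read genes listed with a reference identifier of their own), 0.59 to 0.60 for single pairs of a long-read and a short-read library, 0.86 between the long-read libraries and at least 0.99 between short-read libraries. Genes are not independent replicates, and neighbouring copies share reads. The long-read rank was above the short-read rank in all 6 pairs of libraries for 5432 genes (37.7%) and below it in all 6 for 5180 (35.9%). Among 1557 processed pseudogenes 65.9% were above and 12.6% below, among 2040 lncRNA genes 41.4% and 24.6%, and among 9747 protein-coding genes 32.3% and 42.7%. The median processed pseudogene stood at the 48.6th percentile in long reads and the 28.7th in short reads. Mitochondrial tRNA genes stood at the 9.17th and the 76.9th, and replication-dependent histones were below in all 6 pairs for 34 of 37 genes.

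Among protein-coding and lncRNA genes, RPSA2 stood furthest above its short-read rank, with 2.33, 3.6 and 2.20 normalized counts in short-read chromatin against 1602 and 1839 TPM. ENSG00000225339, a lncRNA with 257 and 491 TPM, had 1.16, 2.40 and 8.78 normalized counts, and its leading transcript matched RPL35 on the opposite strand at 429 of 453 bases. TAPT1-AS1, with 60.6 and 119 TPM, matched RPS21 on the opposite strand at 284 of 306 bases. ENSG00000280800 and CASC11, at 74.6 and 39.6 TPM and 53.0 and 18.9 TPM, were the others. CASC11 matched the MYC mRNA on the opposite strand at 196 of 196 bases, and no alignment was found for ENSG00000280800. In 3 of these 5 the leading transcript carried a stretch of a ribosomal protein mRNA in either strand.

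The protein-coding and lncRNA genes furthest below their short-read rank were mostly held by assembled transcripts. CCDC14, a centriolar protein gene, had 0.00864 and 0.00388 TPM in its reference isoform, but assembled transcripts placed in the gene held 75 and 40.6 TPM. IQCB1, a cilium protein gene, had 0.192 and 0.0391 TPM in its reference isoform and 79.0 and 48.4 TPM in assembled ones. C5orf34 had 0.248 and 0.00129 TPM, with 61.7 and 68.4 TPM in assembled transcripts. CDCA2, a mitotic regulator, had 0.121 and 0.117 TPM, with 44.3 and 2.65 TPM in assembled transcripts. LAMTOR5-AS1 had no assembled transcript placed in it, with 0.0335 and 0.0978 TPM against 39124, 39620 and 36191 normalized counts. A low reference value of a gene was thus no measure of its whole long-read abundance.

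Assembled members lay mostly over annotated genes. Those overlapping an exon on the same strand were 8082, with 14.3% and 13.6% of the table's TPM. Those overlapping an exon on the opposite strand only were 10692 and held 20.0% and 22.4%, the highest share of the position classes. Those within introns held 4.29% and 3.42% on the same strand (12161) and 3.03% and 2.32% on the opposite strand (8602). Intergenic ones (2924) held 1.49% and 1.31%, and ones on alternate or unplaced contigs (3113) held 9.18% and 8.27%. By the lower value of the 2 libraries the highest assembled transcript, at chr9:133019415-133021946 with 2934 and 3277 TPM, matched EEF1A1 at 1742 of 1747 aligned bases. The paper states that direct cDNA sequencing does not keep the strand of origin, so the strands given here are those listed.

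Many reference members had an assembled partner of like extent on the opposite strand, with shared bases making up at least 50% of the joined span. This was so for 5911 of 31433 reference members (18.8%), and for 1839 of 4085 (45.0%) with at least 10 TPM in both libraries. Among the latter it was so for 50.7% of transcripts of protein-coding genes, 36.4% of processed pseudogenes and 15.3% of lncRNA transcripts. The partner's median log2 ratio to the reference transcript was -0.94 and -0.91, and it exceeded the reference transcript in both libraries in 338 pairs. MALAT1 had 2900 and 1713 TPM, and its partner on the opposite strand had 3000 and 1654 TPM. EEF1A1P6 had 2880 and 2435 TPM against 2374 and 2597 TPM for its partner.

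Stranded short reads showed few such pairs. Of the 1839 reference transcripts, 1478 (80.4%) had a short-read gene of like extent on their own strand with counts in all 3 chromatin libraries, while 25 (1.36%) of the opposite-strand partners had one on theirs. MALAT1 had 950756, 1039380 and 906999 normalized counts on its own strand, and no short-read gene of like extent lay on the other strand over the partner. The paper reports that direct cDNA reads lose their strand of origin and that some transcripts are then assembled on the wrong strand. Whether the long reads had been assigned to strands before the deposited table was made is not given in the sources used here. The part of this loss of strand in these pairs was not tested.

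The short-read libraries also allowed the long-read genes to be placed between the fractions. Library totals were 38895027 to 43804918 reads in chromatin and 75737601 to 79523938 in nucleoplasm. Chromatin was compared with nucleoplasm by limma across 26516 genes, and a gene was called at an adjusted p under 0.05 and a log2 fold change beyond 2 in either direction. Over all genes tested, 21.4% were called higher in chromatin and 8.59% higher in nucleoplasm. Of 13435 long-read genes tested, 1295 (9.64%) were called higher in chromatin and 1326 (9.87%) higher in nucleoplasm, with a median log2 fold change of -0.32. This even split held only with the deposited scaling, since the counts were 478 and 5286 when ERCC totals were set equal and 1821 and 622 when read totals were set equal. The long-read rule used no nucleoplasm library. The short-read libraries came from 3 separate cultures per the study's methods, which do not say that equal library numbers mark the same culture. Genes with fewer than 3 libraries at 10 normalized counts or more were not tested, and the counts hold for those that passed.

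The calls moved with long-read abundance. Of genes whose lower long-read value was under 1 TPM, 18.0% were higher in chromatin and 4.80% in nucleoplasm. From 10 to 100 TPM the shares were 3.30% and 15.3%. Of 361 genes with 100 TPM or more in both libraries, 10 (2.77%) were higher in chromatin and 262 (72.6%) in nucleoplasm, with a median log2 fold change of -2.50. Among them were 194 processed pseudogenes, with 0 higher in chromatin and 184 in nucleoplasm, and 142 protein-coding genes, with 6 and 67. Short reads of a copy that closely resembles its parent can be placed at either, so calls of copies are not independent. As listed, the genes that led the long-read chromatin libraries thus mostly had more short reads in nucleoplasm than in chromatin. Of the 262 genes called higher in nucleoplasm, 184 were such copies.

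**Figure D5:**
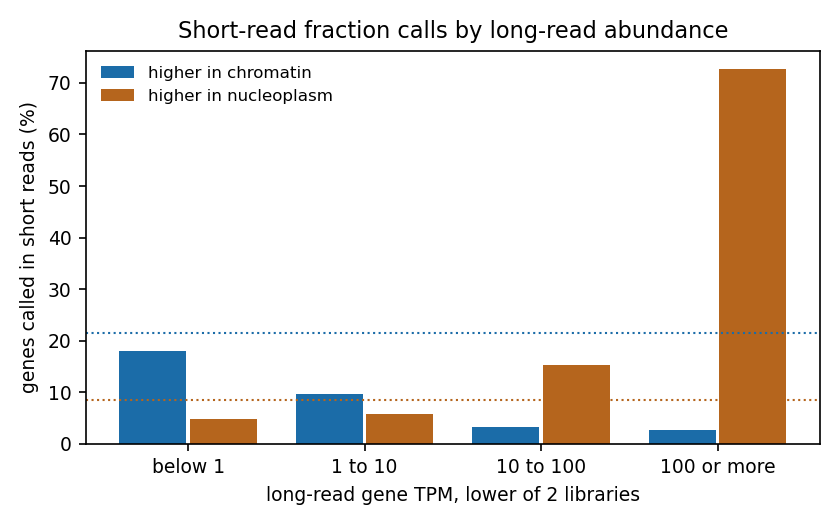
Percent of long-read genes called higher in chromatin (blue) or in nucleoplasm (brown) in short reads (y axis) by the lower gene TPM of the 2 long-read libraries (x axis); dotted lines mark the shares over all genes tested, 21.4% and 8.59%. The share higher in nucleoplasm is 72.6% at 100 TPM or more.

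By type, lncRNA genes of the long-read set were called higher in chromatin for 601 of 1674 (35.9%) and higher in nucleoplasm for 7 (0.418%), against 212 and 110 at equal ERCC totals and 807 and 3 at equal read totals. Processed pseudogenes were called for 149 (10.8%) and 670 (48.6%) of 1379, and protein-coding genes for 289 (2.99%) and 580 (6.0%) of 9671. For protein-coding genes the side with more calls depended on the scaling, with 36 and 3968 at equal ERCC totals and 545 and 139 at equal read totals. Copies at 98 to 100% identity to an mRNA were called for 0 and 148 of 241, and copies under 90% for 111 and 54 of 250. Reads of the former can also be placed at the parent. Ribosomal protein genes were called for 0 and 35 of 55, and replication-dependent histones for 0 and 29 of 36. Of 13 RNAs tested from the list of nuclear lncRNAs, 9 were called higher in chromatin and 0 in nucleoplasm, and 2 and 0 at equal ERCC totals. NORAD and HOTAIRM1, also on that list, had log2 fold changes of -0.42 and -0.03. Where limma called 0, edgeR and DESeq2 on the recovered reads also called 0, and at an unadjusted p under 0.05 the genes in that direction numbered 4 copies, 1 ribosomal protein gene, 1 histone gene and 1 nuclear lncRNA. Genes led in both libraries by a retained-intron isoform were called for 13 (3.59%) and 40 (11%) of 362. Genes led by the MANE Select isoform were called for 36 (1.91%) and 116 (6.17%) of 1880. Both sets hold protein-coding genes only, for which the shares were 2.99% and 6.0%. Over all genes tested the shares were 21.4% on the chromatin side and 8.59% on the nucleoplasm side.

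MALAT1, with 116415, 111672 and 111719 normalized counts in nucleoplasm, stood higher in chromatin by 3.09 on the log2 scale (standard error 0.08, adjusted p = 1.62e-08 by limma). FTX had 27548, 31371 and 24942 normalized counts in chromatin and 1341, 1358 and 1374 in nucleoplasm, a log2 difference of 4.36 (standard error 0.08, adjusted p = 1.30e-08 by limma). CCNL1 had 16159, 15385 and 18754 against 1438, 1527 and 1564, a log2 difference of 3.47 (standard error 0.08, adjusted p = 1.38e-08 by limma). In these 3 genes the fractions did not overlap.

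EEF1A1P6 had 17115, 14439 and 18113 normalized counts in chromatin and 93728, 92917 and 97602 in nucleoplasm, a log2 difference of -2.52 (standard error 0.08, adjusted p = 3.07e-08 by limma). RPS16 had 10623, 8793 and 10779 against 59670, 59098 and 62109, a log2 difference of -2.59 (standard error 0.08, adjusted p = 2.45e-08 by limma). RN7SL1 had 94570, 70918 and 89893 normalized counts in chromatin and differed by -4.86 (standard error 0.13, adjusted p = 1.69e-08 by limma). The fractions did not overlap in any of these, and all 3 genes were among the most abundant of the long-read chromatin libraries.

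Other scalings moved all values together. The median log2 fold change over all genes tested was -0.01 with the deposited scaling, -1.31 when ERCC totals were set equal and 0.45 when read totals were set equal. Calls were on the chromatin side for 71.4%, 26.1% and 86.7% of called genes. The medians of genes with 100 TPM or more (-2.50, -3.79 and -2.03), of lncRNA genes (1.48, 0.21 and 1.93) and of processed pseudogenes (-1.96, -3.22 and -1.51) kept their sign. Relative to the median of all genes, genes with 100 TPM or more stood at -2.48 under all 3 scalings, lncRNA genes at 1.49, 1.52 and 1.48, and processed pseudogenes at -1.95, -1.91 and -1.96. Protein-coding genes stood at -0.43, -0.44 and -0.43, and their own median changed sign, from -0.44 as deposited and -1.75 with ERCC totals to 0.02 with read totals. ERCC reads numbered 251 to 567 per library, which limits the second scaling.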

How the data were processed

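Direct cDNA reads of 2 chromatin libraries and single-end stranded reads of 3 chromatin and 3 nucleoplasm libraries were measured. The authors aligned long reads to hg38 with minimap2, assembled transcripts with StringTie guided by GENCODE 35, merged the libraries and deposited TPM per transcript estimated again per library. The authors aligned short reads with HISAT2, counted reads per StringTie gene and deposited a normalized signal, in which each library's gene counts had been scaled by its DESeq2 size factor. Groups came from the sample titles, since the fraction field names chromatin for the nucleoplasm libraries as well.

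Members and gene lists were chosen with earlier results of these data known. Reference transcripts were typed by stable identifier in GENCODE 44 (31112 of 31433 matched). Assembled transcripts and 29034 of 35967 assembled short-read loci were placed in a reference gene on the same strand at a Jaccard index of 0.5 or more. Listed transcript ends lay beyond the annotated end for 48.6% of 215345 transcripts with an unchanged version, by a median of 89 bases, so levels were not divided by listed interval lengths, although listed intervals were used for overlaps and for the alignment of the highest transcripts. Pseudogenes were aligned to protein-coding mRNAs with minimap2 2.31-r1302 (k 11, w 5), over at least 50% of the copy.

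Short-read genes with at least 10 normalized counts in 3 libraries were compared on log2(value + 1) with limma 3.58.1 (trend, Benjamini-Hochberg over all genes), so fold changes of low genes are understated. Whole reads were recovered for 100% of nonzero values within 0.01, and edgeR 4.0.16 called 5817 genes higher in chromatin and 2237 in nucleoplasm from them. On simulated data for this comparison over 26516 genes, limma recovered 200 of 200 genes changed by 3 on the log2 scale, with 2 false calls. The changed genes were drawn from those with higher counts, in equal numbers up and down. The simulation therefore does not cover genes near the filter or the choice of scaling. Named genes were the 5 highest protein-coding and lncRNA genes and the 3 highest of other types by the lower long-read TPM, the 5 highest reference and assembled transcripts, the 5 highest genes led by a retained-intron or decay isoform or by different isoforms in the libraries, the 5 genes furthest above and below their short-read rank, and up to 4 of each list, chosen by mean TPM; others were named as examples after their values were seen. Some items that this rule covers are not reported here. Replicates were left out in turn, and floors, scalings, pseudocounts, filters and other tools were tried.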

Additional observations from a re-analysis of the deposited data

How the results depend on the processing

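Of 76 alternatives computed, 51 stayed within the replicate spread, the interval or 1.5 times of the value reported, and 25 moved; the causes were not tested. Members numbered 50701 at a floor of 1 TPM in both libraries and 125976 above 0 in at least 1 library. The share of members with a reference identifier (40.8%) was 36.42% at 1 TPM, 47.58% at 10 TPM, 48.8% above 0 in at least 1 library, and 45.31% to 46.19% with a long-read library left out. With a long-read library left out, protein-coding genes held 50.17% to 55.09% of reference TPM, lncRNA genes 4.071% to 5.61% and retained-intron isoforms 14.75% to 15.28% of coding TPM. lncRNA genes held 7.558% with placed assembled transcripts added, and retained-intron isoforms 14.01% at 1 TPM. The leading isoform was the same in 83.96% of genes with 10 TPM. Spearman's rho was 0.5041 without division by length, 0.5499 at 1 TPM, 0.2332 for short-read genes with a reference identifier of their own, and 0.5967 to 0.6265 with a library left out.

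Genes called higher in chromatin numbered 2975 when a mean of 50 normalized counts was required and 3198 at equal ERCC totals, and those higher in nucleoplasm 9035 at equal ERCC totals and 1044 at equal read totals. Long-read genes called higher in chromatin were 3.558% at equal ERCC totals and 7.336% at 1 TPM. Ribosomal protein genes with copies above the parent numbered 21, against 36, with assembled transcripts added.

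A replicate block left the counts at 5680 and 2285 and the share of long-read genes at 9.646%. Same-numbered chromatin and nucleoplasm libraries correlated at 0.0792, 0.0556 and 0.0611 in their deviations, and each chromatin library correlated best with its own number. These values were low, and the main comparison was made without pairing. Chromatin depth was lower than nucleoplasm depth, and isoform values rest on 2 long-read libraries.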
